A study of Mus musculus with 37 samples.

Results

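The genes described here are 9 members of the Slc22 family of organic ion transporters in mouse liver, out of 55536 genes counted. They are the 5 genes Slc22a26, Slc22a27, Slc22a28, Slc22a29 and Slc22a30, which lie together on chromosome 19, and 4 genes elsewhere, Slc22a5, Slc22a7, Slc22a18 and Slc22a23. They were chosen by their measured liver counts in the 4 genotypes, so their liver values are a description and carry no test. The study sequenced liver and cortex RNA of 10-month-old mice to ask what TMEM106B loss and the Q331K form of TDP-43 change in expression. TMEM106B is a membrane protein of lysosomes, and TDP-43 is an RNA-binding protein that the gene Tardbp encodes. The genotypes are named as labelled, and the labels say neither how the Q331K change was introduced nor what deleted TMEM106B. The combined genotype, TMEM106B-/- TDP-43Q331K, had 4 liver and 5 cortex libraries. TMEM106B-/- alone had 4 liver and 5 cortex libraries, TDP-43Q331K alone had 4 liver and 6 cortex libraries, and WT, which carries neither change, had 4 liver and 5 cortex libraries.

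Slc22 proteins are membrane transporters for small charged molecules. Hepatocytes use them on the blood-facing membrane to take up drugs, hormones and metabolites, and they fall into groups that carry organic cations, carnitine and related zwitterions, or organic anions. The chromosome 19 genes belong to the organic anion group, in a cluster that is expanded in rodents, and several of its genes are known for levels that differ between the livers of male and female mice.

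Liver libraries held 50.5 to 74.1 M counts and cortex libraries 28.8 to 46.3 M counts. Variation between libraries of a genotype beyond counting error, as a coefficient, came to 0.235 for liver against 0.103 for cortex. RNA of Tmem106b was not lower in libraries labelled TMEM106B-/-. It was at 122.0 to 142.9 CPM (counts per 1 M) in livers of the combined genotype, 107 to 128.6 CPM in TMEM106B-/-, 63.6 to 113 CPM in TDP-43Q331K and 78.5 to 114 CPM in WT, so the direction of every comparison for TMEM106B loss rests on the labels. RNA of Tardbp was at 99.4 to 143 CPM across the 16 livers. The Y-linked transcript Ddx3y was at 40.4 to 80.4 CPM in all 37 libraries and Xist at no more than 0.389 CPM. All 8 hepatocyte markers were abundant in every liver, with summed levels of 93700 to 133000 CPM. Kidney expresses many Slc22 genes, and the 9 kidney markers together reached 0.45 to 2.4 CPM in liver, with Kap and Slc5a12 at 0 in every library. Acute-phase transcripts stood apart in 3 livers. Their summed levels were 20610 CPM in replicate 1 of the combined genotype, 26610 CPM in TMEM106B-/- replicate 4 and 22130 CPM in WT replicate 2, against 7357 to 13470 CPM in the other 13.

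The chromosome 19 genes lie on the minus strand of GRCm38, in the order Slc22a26 (ENSMUSG00000053303, chr19:7781041-7802667), Slc22a27 (ENSMUSG00000067656, chr19:7864388-7966027), Slc22a28 (ENSMUSG00000063590, chr19:8062209-8131982), Slc22a29 (ENSMUSG00000075044, chr19:8160165-8218900) and Slc22a30 (ENSMUSG00000052562, chr19:8335371-8405111). Their promoter windows are shown because these neighbours had opposite directions in liver. Each window holds 250 bases before and 50 after the annotated start (RefSeq, GRCm38.p6), and RefSeq gave one for 8 of the 9 members. The windows are chr19:7802618-7802917, chr19:7965978-7966277, chr19:8131933-8132232, chr19:8218851-8219150 and chr19:8405056-8405355 in the same gene order, written 5′ to 3′ along the minus strand, with capitals marking matches to the motifs given after them.
Slc22a26: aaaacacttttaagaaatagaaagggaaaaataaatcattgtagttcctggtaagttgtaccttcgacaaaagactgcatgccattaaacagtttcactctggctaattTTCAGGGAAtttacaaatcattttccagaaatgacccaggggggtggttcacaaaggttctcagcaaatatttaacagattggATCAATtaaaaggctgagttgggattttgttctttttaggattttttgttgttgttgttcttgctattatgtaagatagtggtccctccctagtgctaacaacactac
Slc22a27: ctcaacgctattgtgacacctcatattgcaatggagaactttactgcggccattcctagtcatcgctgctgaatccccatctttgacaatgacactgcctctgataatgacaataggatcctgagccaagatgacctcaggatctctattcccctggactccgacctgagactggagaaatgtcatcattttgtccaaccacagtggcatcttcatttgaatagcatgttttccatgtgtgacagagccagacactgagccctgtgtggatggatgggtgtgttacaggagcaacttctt
Slc22a28: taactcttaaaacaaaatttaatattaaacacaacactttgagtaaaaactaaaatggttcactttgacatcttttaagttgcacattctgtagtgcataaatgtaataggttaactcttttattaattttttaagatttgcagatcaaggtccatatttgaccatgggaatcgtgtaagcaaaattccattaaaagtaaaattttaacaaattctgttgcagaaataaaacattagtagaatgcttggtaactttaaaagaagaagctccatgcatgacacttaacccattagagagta
Slc22a29: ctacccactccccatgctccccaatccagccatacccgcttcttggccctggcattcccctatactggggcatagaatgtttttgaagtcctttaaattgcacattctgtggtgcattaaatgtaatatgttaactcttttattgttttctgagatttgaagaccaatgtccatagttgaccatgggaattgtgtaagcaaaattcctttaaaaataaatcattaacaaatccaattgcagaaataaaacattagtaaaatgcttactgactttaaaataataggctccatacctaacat
Slc22a30: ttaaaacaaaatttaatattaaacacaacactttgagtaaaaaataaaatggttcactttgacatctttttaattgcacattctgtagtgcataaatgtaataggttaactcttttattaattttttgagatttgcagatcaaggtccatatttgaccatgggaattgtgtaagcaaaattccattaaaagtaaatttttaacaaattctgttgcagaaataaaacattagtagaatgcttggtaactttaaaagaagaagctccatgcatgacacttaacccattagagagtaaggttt

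The Slc22a28 and Slc22a30 windows were nearly the same sequence, identical at 98% of 294 aligned bases. Slc22a29 matched Slc22a30 at 79.3% and Slc22a28 at 75.1% of aligned bases, although its level moved the other way. All other pairs of members lay between 43.6% and 63.1%, also the pair Slc22a27 and Slc22a29 at 58.5%. A search of both strands for motifs of liver transcription factors used TTCNNNGAA for STAT5, ATCAAT for HNF6 and CAAAGTCCA for HNF4A, and the HNF1 motif, none of which overlapped another in these windows. Of 32851 mouse promoter windows of this length, 8.3% held the STAT5 motif, 7.54% the HNF6 motif, 0.475% the HNF4A motif and 0.00913% the HNF1 motif. Slc22a26 held the STAT5 letters TTCAGGGAA at position -141 and the HNF6 letters ATCAAT at position -58 from the start. The other 4 windows on chromosome 19 held none of the motifs. Outside chromosome 19, Slc22a18 held the HNF6 motif on the opposite strand at -163. These are matches of letters, not measured binding.

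Combined-genotype livers were compared with WT livers. Among the members, 3 were called higher and 2 lower, all 5 on chromosome 19, and none of the other 4 was called. A call is an adjusted p under 0.05 in the fit across all 16710 genes tested. Of all genes tested, 7.04% were called in this comparison, 4.19% higher and 2.85% lower. Liver RNA is a bulk measure, in which fewer cells of a type and less RNA per cell cannot be told apart. Values after ± are SE for log2 fold changes and SD for levels.

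Slc22a27 stood at 11.3, 17.1, 13.2 and 9.49 CPM in the 4 livers of the combined genotype, 2.71, 3.11, 2.21 and 1.35 CPM in TMEM106B-/-, 0.973, 1.01, 0.473 and 0.708 CPM in TDP-43Q331K and 0.675, 1.07, 1.43 and 1.09 CPM in WT. Every combined-genotype liver lay above all 12 others, and the TMEM106B-/- livers overlapped WT at 1 library. The combined genotype was 11.9-fold higher than WT (log2 fold change 3.58 ± 0.30), 16.1-fold higher than TDP-43Q331K (4.01 ± 0.31) and 5.47-fold higher than TMEM106B-/- (2.45 ± 0.29).

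Slc22a29 stood at 3.69, 6.05, 5.76 and 4.95 CPM in the combined genotype, 1.68, 1.19, 1.11 and 0.397 CPM in TMEM106B-/-, 0.486, 0.564, 0.51 and 0.528 CPM in TDP-43Q331K and 0.571, 0.574, 0.601 and 0.465 CPM in WT. The combined genotype again lay above every other liver, and in TMEM106B-/- 3 libraries lay above all WT livers while replicate 4 lay below them. The difference from WT was 9.23-fold (3.21 ± 0.32), that from TDP-43Q331K 9.76-fold (3.29 ± 0.32) and that from TMEM106B-/- 4.72-fold (2.24 ± 0.30).

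Slc22a26 was uneven between livers of the combined genotype. It stood at 13.4, 2.79, 4.63 and 2.19 CPM in the combined genotype, 2.14, 3.29, 0.685 and 0.833 CPM in TMEM106B-/-, 0.713, 0.929, 0.564 and 0.648 CPM in TDP-43Q331K and 0.519, 0.537, 0.895 and 1.55 CPM in WT. The combined genotype did not overlap WT or TDP-43Q331K but overlapped TMEM106B-/-. Its mean rested in large part on replicate 1, one of the livers with high acute-phase transcripts, whose part in this level was not tested. The log2 fold change was 2.70 ± 0.61 against WT, 1.86 ± 0.49 without that liver and 1.69 ± 0.49 without all 3 such livers, where the gene was no longer called. Against TDP-43Q331K it was 3.01 ± 0.62, or 2.16 ± 0.50 without replicate 1.

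Slc22a28 had the opposite direction. It stood at 8.59, 8.51, 9.7 and 10.8 CPM in the combined genotype, 15.6, 9.01, 17.7 and 16.5 CPM in TMEM106B-/-, 20.7, 20.9, 23.4 and 21.9 CPM in TDP-43Q331K and 21.9, 22.6, 19.8 and 20.4 CPM in WT. All combined-genotype and all TMEM106B-/- livers lay below all WT and TDP-43Q331K livers, and TMEM106B-/- replicate 2 lay within the combined genotype's range. The combined genotype was 2.25-fold lower than WT (-1.17 ± 0.16), and TMEM106B-/- was 1.44-fold lower than WT (-0.52 ± 0.16), which was not called.

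Slc22a30, the most abundant gene of the cluster, stood at 124, 133, 136 and 130.2 CPM in the combined genotype, 199, 123, 155 and 133 CPM in TMEM106B-/-, 143, 169, 169 and 173 CPM in TDP-43Q331K and 207, 204, 179 and 185 CPM in WT. The combined genotype lay below all WT and TDP-43Q331K livers, the TMEM106B-/- livers spread over nearly the whole range, and the TDP-43Q331K livers also lay below all WT livers. The combined genotype was 1.48-fold lower than WT (-0.57 ± 0.13), a call lost without the 3 livers with high acute-phase transcripts (-0.52).

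**Figure D1:**
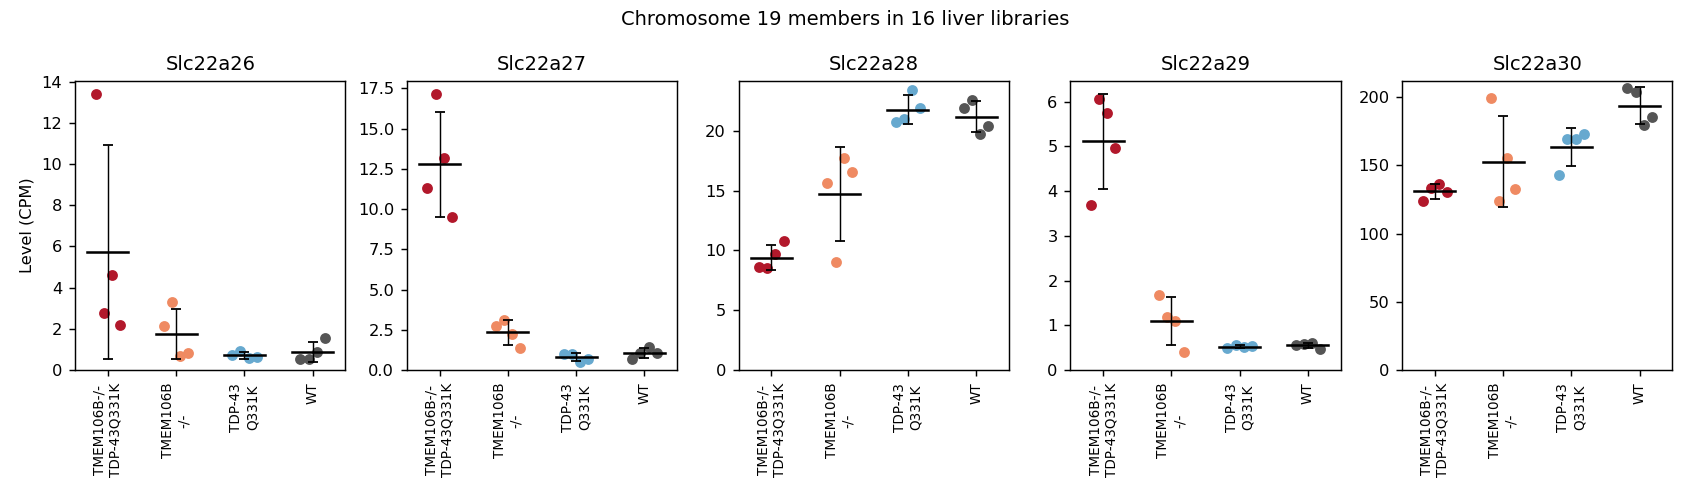
Levels in CPM of the 5 chromosome 19 members in 16 liver libraries, each point a library, the wide bar the genotype mean and the whiskers 1 SD, with a separate vertical scale starting at 0 for each gene. Slc22a27 lies at 9.49 to 17.1 CPM in the combined genotype against 0.675 to 1.43 CPM in WT, while Slc22a28 lies at 8.51 to 10.8 CPM in the combined genotype against 19.8 to 22.6 CPM in WT.

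The single-change genotypes were set against WT in the same fit. Against WT, TMEM106B-/- livers had 0 members called, where 1.05% of all genes were called, and TDP-43Q331K livers had 0 members called, where 0.263% were. TMEM106B-/- differed from WT by 1.13 ± 0.29 for Slc22a27, 0.97 ± 0.31 for Slc22a29 and 0.97 ± 0.60 for Slc22a26. Without TMEM106B-/- replicate 4, a liver with high acute-phase transcripts, Slc22a27 (1.32) and Slc22a29 (1.25) were called, and DESeq2 called Slc22a27. Calls over all genes were also more frequent there, 353 of 16970 genes without that liver and 620 of 16710 with DESeq2, against 176 of 16710 in the fit of all livers by edgeR. DESeq2 called no member in TDP-43Q331K against WT. TDP-43Q331K differed from WT by -0.43 ± 0.30 for Slc22a27, -0.08 ± 0.32 for Slc22a29 and 0.04 ± 0.16 for Slc22a28. By edgeR, 2517 genes in the TMEM106B-/- comparison and 2547 in the TDP-43Q331K comparison had an unadjusted p under 0.05.

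The combined genotype was also set against each single-change genotype. Against TDP-43Q331K, 4 members were called, Slc22a26, Slc22a27 and Slc22a29 higher and Slc22a28 lower (-1.21 ± 0.16), where 3.94% of all genes were called, 2.17% higher and 1.77% lower. Against TMEM106B-/-, Slc22a27 and Slc22a29 were called higher, where 1.04% of all genes were called, 0.485% higher and 0.551% lower, and Slc22a28 was at -0.65 ± 0.16. The interaction is the effect of the TMEM106B-/- label on the TDP-43Q331K background minus its effect without TDP-43Q331K. It was 2.88 ± 0.41 for Slc22a27 and 2.32 ± 0.43 for Slc22a29, both called higher, where 0.688% of all genes were called, 0.341% higher and 0.347% lower, and 0.02 ± 0.18 for Slc22a30, which was not. The Slc22a29 call was lost without replicate 2 of the combined genotype (2.22). These comparisons share libraries, so their calls are not independent of each other.

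**Figure D2:**
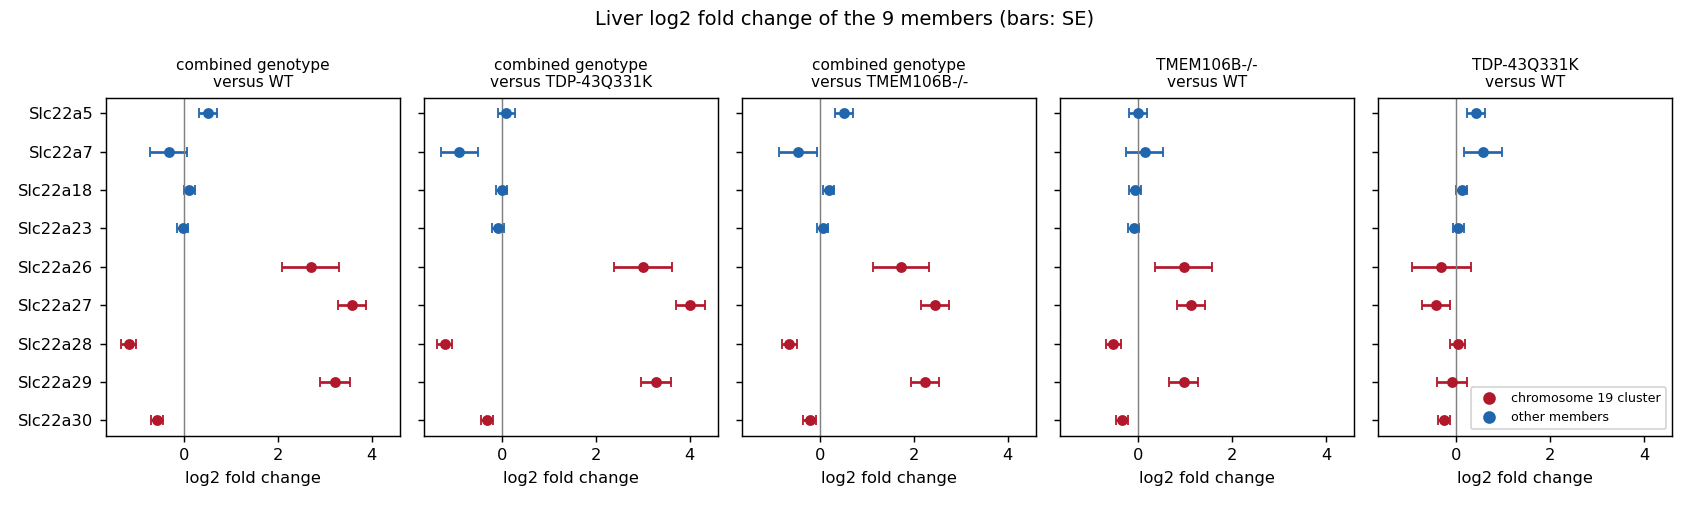
Log2 fold change (horizontal axis, whiskers 1 SE) of the 9 members in 5 liver comparisons, with chromosome 19 members in red and the others in blue. Slc22a26, Slc22a27 and Slc22a29 lie right of 0 wherever the combined genotype is compared, at 2.70, 3.58 and 3.21 against WT, while Slc22a28 (-1.17) and Slc22a30 (-0.57) lie left.

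Genes of both directions were interspersed along the chromosome. From left to right the log2 fold changes of the combined genotype against WT were 2.70, 3.58, -1.17, 3.21 and -0.57, so the lower Slc22a28 sat between the higher Slc22a27 and Slc22a29. The window from Slc22a19 to Slc22a6 spans 955 kb and holds 15 other annotated genes, of which 14 had too few counts to be tested. The remaining gene, Gm8189, was not called (-0.18 ± 0.27, edgeR adjusted p = 0.755).

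**Figure D3:**
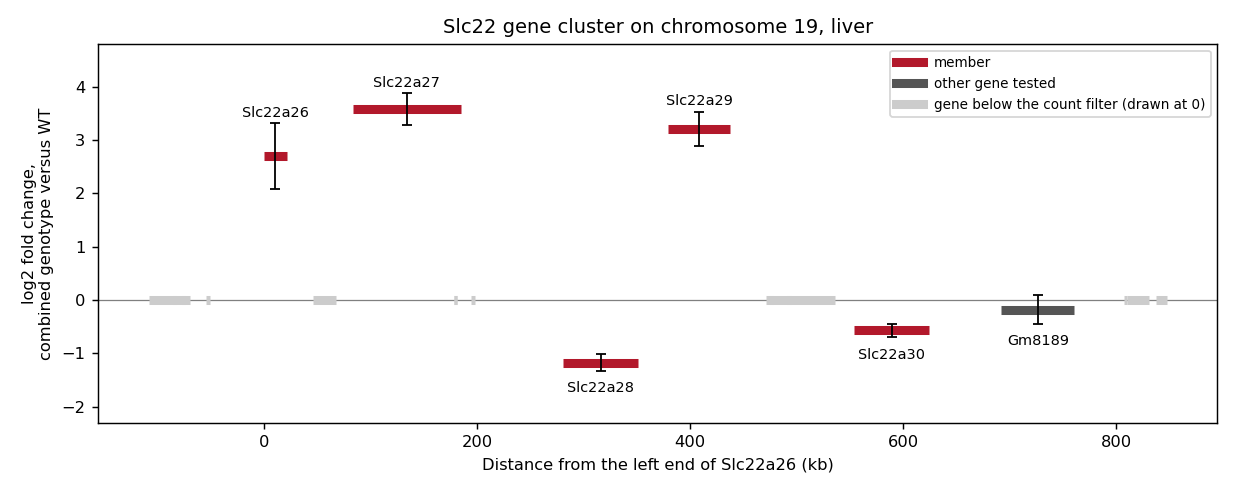
Genes of the chromosome 19 window drawn to scale as bars, by distance in kb from the left end of Slc22a26, at the height of their log2 fold change in liver of the combined genotype against WT (whiskers 1 SE). Members are red, Gm8189 at -0.18 is dark grey, and genes with too few counts are drawn in light grey at 0 and have no measured change.

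The summed level of the 5 chromosome 19 genes lay below all WT livers in the combined genotype and overlapped both other genotypes, and its make-up differed. The sum was 157.6 to 169.4 CPM in the combined genotype, 140.1 to 221 CPM in TMEM106B-/-, 166 to 197 CPM in TDP-43Q331K and 202 to 230.5 CPM in WT. Slc22a26, Slc22a27 and Slc22a29 together made up 10.6 to 17.7% of it in the combined genotype, 1.7 to 5.41% in TMEM106B-/-, 0.798 to 1.31% in TDP-43Q331K and 0.765 to 1.49% in WT. Slc22a30 made up 77 to 82.6% in the combined genotype, against 88.7 to 89.7% in WT. The ratio of Slc22a27 to Slc22a28 counts was 0.883 to 2.01 in the combined genotype, 0.0817 to 0.345 in TMEM106B-/-, 0.0202 to 0.0483 in TDP-43Q331K and 0.0308 to 0.0722 in WT.

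Near-identical stretches in these genes could let reads be assigned to the wrong one, and how the authors' counting treated such reads is not given in the sources used here. Of all 50-base words in the Slc22a28 transcripts, 53.3% also occur in those of Slc22a30, and 31% of the Slc22a30 words occur in Slc22a28. Slc22a27 and Slc22a29 share 25.3% of the words of Slc22a27 and 23% of those of Slc22a29. Between genes of opposite direction the overlap was at most 9.23%, the share of Slc22a29 words found in Slc22a30. Of the Slc22a30 words, 6.48% occur in Slc22a29 and 5.03% in Slc22a27. Slc22a30 was far more abundant in WT, at 179 to 207 CPM against means of 0.553 CPM for Slc22a29 and 1.07 CPM for Slc22a27. Whether misassigned Slc22a30 reads add to these low levels was not tested, and summing within the close pairs leaves this overlap in place. Of the Slc22a26 words, none occurs in another member and 6.21% occur in a neighbouring pseudogene. Values for single genes of both close pairs are therefore less certain than their sums. Summed, Slc22a27 and Slc22a29 were 11-fold higher in the combined genotype than in WT (3.46 ± 0.27), and Slc22a28 and Slc22a30 were 1.53-fold lower (-0.62 ± 0.13), both still called. Against TDP-43Q331K the sum of Slc22a28 and Slc22a30 was not called (-0.40 ± 0.13), nor was Slc22a30 alone (-0.32 ± 0.13). Slc22a30 makes up most of this sum, at a mean of 193.8 CPM in WT against 21.16 CPM for Slc22a28. The sum therefore mostly follows Slc22a30 and cannot decide how certain the Slc22a28 value is.

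The 4 members elsewhere had no call in any liver comparison. Slc22a5 (ENSMUSG00000018900, chr11:53864542-53891660), the carnitine transporter OCTN2, stood at 29.8, 20.2, 34.0 and 35.9 CPM in the combined genotype, 19.6, 25.9, 20.1 and 18 CPM in TMEM106B-/-, 39.5, 24.5, 27.6 and 20.7 CPM in TDP-43Q331K and 18.5, 19.2, 22.8 and 23 CPM in WT. In the combined genotype 3 of 4 livers lay above every WT liver, and replicate 2 lay among them (0.52 ± 0.19), with a call when that replicate was left out (0.68). In TDP-43Q331K replicates 1 to 3 also lay above every WT liver and replicate 4 lay among them (0.42 ± 0.19, not called). The combined genotype differed from TDP-43Q331K by 0.10 ± 0.19. Slc22a5 shares 26.1% of its 50-base words with its neighbour Slc22a21, so part of its count may belong there.

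Slc22a7 (ENSMUSG00000067144, chr17:46432183-46438457), the organic anion transporter OAT2 of hepatocytes, varied widely within genotypes. It stood at 98.2, 32.5, 46.5 and 68.7 CPM in the combined genotype, 93.8, 55.4, 115 and 73.9 CPM in TMEM106B-/-, 85.5, 106.1, 122 and 145 CPM in TDP-43Q331K and 54.1, 67.4, 38.4 and 147 CPM in WT. All genotypes overlapped, and the combined genotype differed from WT by -0.32 ± 0.40. Slc22a18 (ENSMUSG00000000154, chr7:143473736-143499334), an imprinted gene, averaged 113 ± 8.16 CPM in the combined genotype and 103 ± 6.81 CPM in WT (SD, n = 4 each; 0.12 ± 0.12). Slc22a23 (ENSMUSG00000038267, chr13:34179158-34345182), whose substrate is not established, averaged 56.5 ± 1.80 CPM in the combined genotype and 57.4 ± 6.62 CPM in WT (SD, n = 4 each; -0.02 ± 0.12). Both overlapped WT in every genotype.

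**Figure D4:**
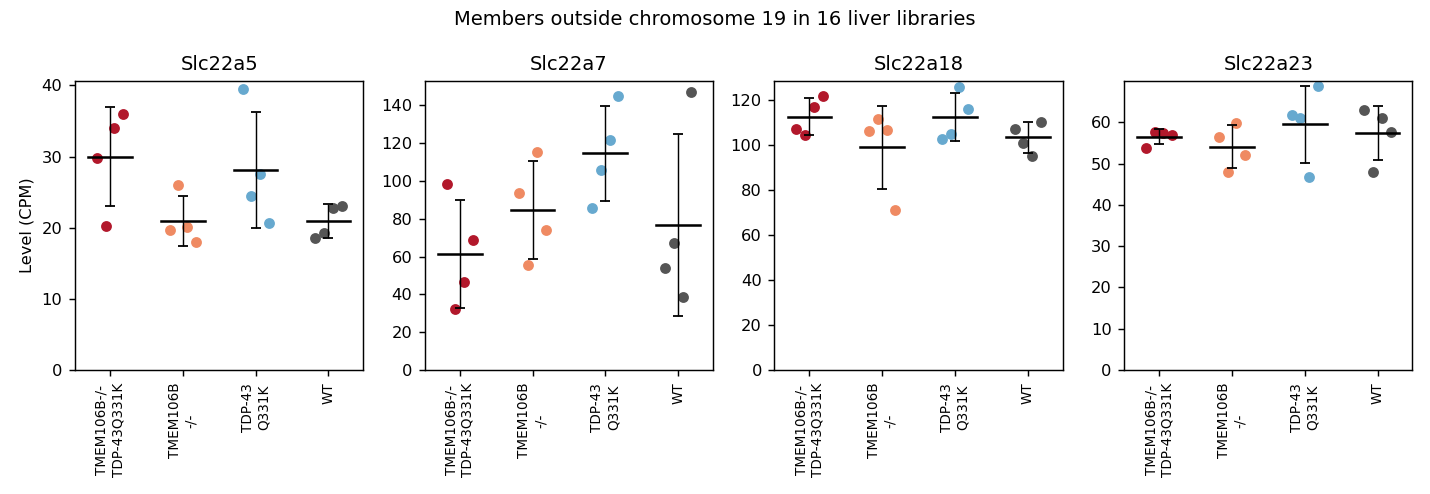
Levels in CPM of the 4 members outside chromosome 19 in 16 liver libraries, each point a library, the wide bar the genotype mean and the whiskers 1 SD. The genotypes overlap in each panel. Slc22a7 is the most scattered of the 4, at 38.4 to 147 CPM within WT alone, and Slc22a23 averages 56.5 CPM in the combined genotype and 57.4 CPM in WT.

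Per length, the order of members differed between genotypes. In the combined genotype mean levels were 66.3 CPM per kb of exon for Slc22a18, 38.8 for Slc22a30, 29.3 for Slc22a7, 9.77 for Slc22a5, 8.84 for Slc22a23, 5.94 for Slc22a27, 4.69 for Slc22a28, 2.25 for Slc22a29 and 1.95 for Slc22a26. In WT they were 60.9 CPM per kb for Slc22a18, 57.5 for Slc22a30, 36.5 for Slc22a7, 10.6 for Slc22a28, 8.98 for Slc22a23, 6.80 for Slc22a5, 0.495 for Slc22a27, 0.297 for Slc22a26 and 0.243 for Slc22a29. The first 3 kept their order. Neighbours in the order whose means lay within the larger of their SDs were Slc22a30 and Slc22a7, Slc22a5 and Slc22a23, Slc22a27 and Slc22a28, and Slc22a29 and Slc22a26 in the combined genotype. In WT these were Slc22a18 and Slc22a30, Slc22a30 and Slc22a7, and Slc22a26 and Slc22a29, while the Slc22a28 level was far above that of Slc22a27.

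Across the 16 livers, log2 levels of the chromosome 19 genes split by direction, as a description over libraries that share genotype. Pearson r was 0.97 between Slc22a27 and Slc22a29, 0.78 between Slc22a28 and Slc22a30 and -0.93 between Slc22a27 and Slc22a28. After the genotype means were taken out, these were 0.63, 0.52 and -0.59. The split did not hold for every pair then. Slc22a29 and Slc22a30 went from -0.57 to 0.57, Slc22a27 and Slc22a30 from -0.66 to -0.02, and Slc22a28 and Slc22a29 from -0.87 to -0.16. Slc22a26 went from 0.76 to -0.02 with Slc22a29 and from -0.61 to -0.18 with Slc22a30. It kept 0.34 with Slc22a27 and -0.63 with Slc22a28. The genes most like each member in the 16 livers were Slc22a29 (0.973), the peroxisomal hydroxyacid oxidase Hao2 (0.971) and the lipoprotein receptor Vldlr (0.958) for Slc22a27. For Slc22a29 they were Hao2 (0.989), Slc22a27 (0.973) and the fatty acid transporter Cd36 (0.954). Slc22a26 was most like the sulfotransferase Sult3a1 (0.923) and the cytochromes Cyp2c69 (0.919) and Cyp2c40 (0.901). Slc22a28 was most like the major urinary protein gene Mup11 (0.955), the oxysterol hydroxylase Cyp7b1 (0.950) and the complement gene C6 (0.927), and Slc22a30 was most like Mpp4 (0.864), Myo6 (0.850) and Zfp141 (0.825). The 4 members elsewhere had their highest r with other genes, Trarg1 (0.819) for Slc22a5, Naaa (0.802) for Slc22a7, Ptms (0.918) for Slc22a18 and Exoc6 (0.795) for Slc22a23. Hao2 averaged 6.79 CPM in the combined genotype and 0.189 CPM in WT, and Mup11 9.8 CPM in the combined genotype and 174 CPM in WT.

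Of the 16 other Slc22 genes in the annotation, 6 were tested in liver. Slc22a15, a carrier of zwitterions, was the only one of these 6 called, in the combined genotype against WT, where 7.04% of all genes were called. It averaged 15.3 ± 1.01 CPM in the combined genotype and 9.60 ± 1.35 CPM in WT (SD, n = 4 each), with no overlap (0.67 ± 0.19, edgeR adjusted p = 0.0459), and the call was lost in each fit that left out 1 of these 8 libraries, 8 of 14 alternatives (adjusted p 0.0128 to 0.108). The median log2 fold change of the 6 was 0.06, against -0.029 over all genes tested.

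Of 24 hepatic transporters of other families, which move bile acids, drugs and lipids, 23 were tested. In the combined genotype against WT 1 rose and 3 fell. The shares over all genes tested were 4.19% higher and 2.85% lower. Slco1a4, an uptake carrier of organic anions, rose 2.88-fold (1.52 ± 0.34, edgeR adjusted p = 0.016). Its relative Slco1a1 fell (-1.24 ± 0.27, edgeR adjusted p = 0.0104), as did Abcb1b, a P-glycoprotein efflux pump (-1.64 ± 0.27, edgeR adjusted p = 0.00138), and the prostaglandin carrier Slco2a1 (-0.67 ± 0.13, edgeR adjusted p = 0.00578). These 4 calls held in all 14 alternatives. Abcb1b (-1.39 ± 0.27) and Slco1a1 (-1.09 ± 0.26) also fell against TDP-43Q331K, and Slco1a1 fell against TMEM106B-/- (-1.16 ± 0.26), the Slco1a1 calls being lost in 7 and 11 of 14 alternatives. The list's median was 0.07 in the comparison with WT.

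All 10 genes of carnitine synthesis and use were tested, since Slc22a5 supplies carnitine, and in the combined genotype against WT 3 rose and none fell. Of all genes tested, 4.19% were called higher and 2.85% lower there. Crat, which transfers acetyl groups to carnitine, rose 1.83-fold (0.87 ± 0.20, edgeR adjusted p = 0.0135), and also against TDP-43Q331K (1.15 ± 0.20, edgeR adjusted p = 0.00384) and TMEM106B-/- (0.98 ± 0.20, edgeR adjusted p = 0.0225), the last call being lost in 7 of 14 alternatives. The carnitine synthesis enzymes Aldh9a1 (0.47 ± 0.11, edgeR adjusted p = 0.0185) and Tmlhe (0.68 ± 0.20, edgeR adjusted p = 0.0459) rose against WT. Their calls were lost in 3 and 9 of 14 alternatives. The median of the 10 genes was 0.32, against -0.029 over all genes. Aldh9a1 alone rose in TMEM106B-/- against WT (0.48 ± 0.11, edgeR adjusted p = 0.0499), a call lost in 12 of 14 alternatives, and Crat had an interaction of 1.26 ± 0.28 (edgeR adjusted p = 0.0464), lost in 15 of 21.

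Markers of other liver cells were measured in the same libraries. Of 6 stellate cell markers the collagen genes Col1a1 and Col3a1 rose in the combined genotype against WT, with summed levels of 157 to 189 CPM in the combined genotype and 112 to 170 CPM in WT. Of 8 hepatocyte markers Apoa1 fell, of 2 adipocyte markers tested Retn rose, and Lrp2, the kidney marker that could be tested, fell, with summed levels of the kidney markers at 0.45 to 0.905 CPM in the combined genotype and 1.66 to 1.89 CPM in WT. Of 8 Kupffer cell, 7 endothelial, 5 bile duct, 5 red blood cell and 8 acute-phase markers none was called in this comparison. Of 6 tested markers from a list for cortex glia and vessels, Aqp4, Cldn5 and Gfap were called here, 2 higher and 1 lower. Over all genes tested in liver, 7.04% were called in the combined genotype against WT, 4.19% higher and 2.85% lower. In other liver comparisons, Apoa1 was also lower in the combined genotype against TDP-43Q331K and against TMEM106B-/-. The endothelial marker Pecam1, Col3a1 and Aqp4 were higher in the combined genotype against TDP-43Q331K. The endothelial marker Clec4g was lower in TMEM106B-/- against WT. Of all genes tested, 3.94% were called in the combined genotype against TDP-43Q331K and 1.04% against TMEM106B-/-. In TMEM106B-/- against WT 1.05% were called. The called markers are named after their values were seen, and their part in the levels of the Slc22 genes was not tested.

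The rule that chose the genes used liver counts only, and the members were tested in cortex in the fit across its 21248 genes, although earlier results of both tissues were known when the genes and lists were chosen. Slc22a5, Slc22a18 and Slc22a23 passed the count filter, and none was called in any of the 6 comparisons by edgeR or DESeq2. Of all cortex genes, edgeR called 4.89% in the combined genotype against WT, 1.4% against TDP-43Q331K and 5.16% in TMEM106B-/- against WT. It called 0% in the other 3 comparisons, where DESeq2 called at most 10 genes. In these 3, 972 to 1053 of the 21248 genes had an unadjusted p under 0.05, no more than no difference at all would give. Of the members tested, Slc22a18 alone had an unadjusted p under 0.05, in the combined genotype against WT, in the combined genotype against TDP-43Q331K and in TMEM106B-/- against WT. Slc22a23 averaged 92.6 ± 1.91 CPM in the combined genotype (SD, n = 5) and 94.8 ± 4.86 CPM in WT (SD, n = 5; -0.03 ± 0.04), and Slc22a5 12.9 ± 0.755 CPM in the combined genotype and 13 ± 1.01 CPM in WT (-0.02 ± 0.08).

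Slc22a18 was scarce in cortex, with 3 to 43 counts a library. It stood at 0.55, 0.66, 0.493, 0.324 and 0.469 CPM in the combined genotype, 0.887, 0.581, 0.42, 0.233 and 0.93 CPM in TMEM106B-/-, 0.139 to 0.391 CPM with a median of 0.288 CPM in TDP-43Q331K, and 0.0863, 0.374, 0.16, 0.241 and 0.515 CPM in WT. All genotypes overlapped. TMEM106B-/- differed from WT by 1.18 ± 0.38 (edgeR adjusted p = 0.0754), which was called without WT replicate 5 (1.5, edgeR adjusted p = 0.0323) or without TMEM106B-/- replicate 4 (1.39, edgeR adjusted p = 0.026). Markers of meninges were measured in the same libraries. Their summed levels were 73.0, 52.7, 24.9, 46.2 and 90.2 CPM in TMEM106B-/- replicates 1 to 5 and 11.4, 22.2, 20.5, 21.6 and 30.3 CPM in WT replicates 1 to 5. Replicates 1 and 5 were thus highest in both measures in TMEM106B-/-, and in WT replicate 1 was lowest and replicate 5 highest in both. The lowest TMEM106B-/- library was replicate 4 for Slc22a18 and replicate 3 for the markers. In TDP-43Q331K Slc22a18 was highest in replicate 1 (0.391 CPM) and the markers in replicate 4 (41.0 CPM). In the combined genotype replicate 2 was highest in both, while replicate 4 was lowest for Slc22a18 and replicate 5 for the markers (30.2 CPM). The oligodendrocyte markers Mbp and Mog, 2 of 7 markers of glia and vessels, fell in the same comparison and in the combined genotype against WT. The part of these cells in the Slc22a18 level was not tested.

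The chromosome 19 genes were nearly absent from cortex counts. Slc22a26 and Slc22a27 had 0 counts in all 21 libraries, which allows up to 0.0649 to 0.105 CPM a library at a limit of 3 counts. Slc22a28 had at most 2 counts and Slc22a30 at most 3 in any library. Slc22a29 reached 0.404 CPM and Slc22a7 0.584 CPM, each in a TDP-43Q331K library, below the count filter.

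**Figure D5:**
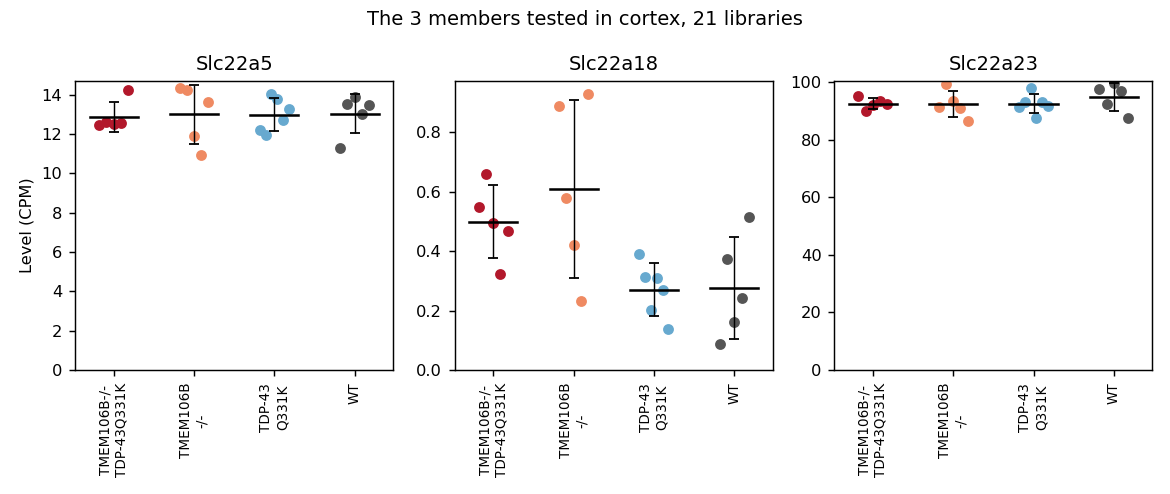
Levels in CPM of the 3 members tested in cortex in 21 libraries, each point a library, the wide bar the genotype mean and the whiskers 1 SD, with a separate vertical scale starting at 0 for each gene. Slc22a5 and Slc22a23 overlap closely in all genotypes, and Slc22a18 averages 0.61 CPM in TMEM106B-/- against 0.275 CPM in WT with overlapping points.

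Of the 16 other Slc22 genes 9 were tested in cortex, and the organic anion transporters Slc22a8 (OAT3) and Slc22a6 (OAT1) were called. Over all cortex genes, 5.16% were called in TMEM106B-/- against WT. In the combined genotype 4.89% were called against WT and 1.4% against TDP-43Q331K. Slc22a8 averaged 18.1 ± 3.44 CPM in the combined genotype, 20.1 ± 5.02 CPM in TMEM106B-/-, 11.8 ± 1.68 CPM in TDP-43Q331K and 12.1 ± 1.53 CPM in WT (SD, n = 5, 5, 6 and 5). It rose in TMEM106B-/- against WT (0.74 ± 0.16, edgeR adjusted p = 0.0083), a call kept in all 15 alternatives. It also rose in the combined genotype against WT (0.58 ± 0.16, edgeR adjusted p = 0.0389) and against TDP-43Q331K (0.61 ± 0.15, edgeR adjusted p = 0.0464), calls lost in 10 of 15 and 11 of 16 alternatives. Slc22a6 rose in TMEM106B-/- against WT (1.46 ± 0.40, edgeR adjusted p = 0.0389), lost in 9 of 15. In the brain both genes are known from its coverings and the choroid plexus. Of 6 markers of meninges, Col1a1, Foxc1, Slc47a1 and Slc6a13 rose in TMEM106B-/- against WT, and Slc6a13 in the combined genotype against WT. Of 4 choroid plexus markers tested, Kcnj13 rose in both, but the summed level of the list did not. Its median was 8.21 CPM in the combined genotype, 8.22 CPM in TMEM106B-/-, 14.5 CPM in TDP-43Q331K and 9.66 CPM in WT. Summed levels of the meninges markers were 30.2 to 62.6 CPM in the combined genotype, 24.9 to 90.2 CPM in TMEM106B-/-, 17.7 to 41.0 CPM in TDP-43Q331K and 11.4 to 30.3 CPM in WT, and their part in both genes was not tested. Of 16 hepatic transporters tested in cortex, Slc47a1, itself one of these 6 markers, rose (2.55 ± 0.64, edgeR adjusted p = 0.0263) and Atp8b1, a lipid flippase, fell (-0.39 ± 0.11, edgeR adjusted p = 0.0332) in TMEM106B-/- against WT, and Abcb1b fell in the combined genotype against TDP-43Q331K (-0.39 ± 0.10, edgeR adjusted p = 0.0464). These 3 calls were lost in 8 of 15, 9 of 15 and 12 of 16 alternatives. None of 9 carnitine genes tested in cortex was called.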

How the data were processed

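RNA was measured in 16 liver and 21 cortex libraries. Library preparation was directional, from Trizol-extracted RNA, per the labels. Trim Galore, cutadapt, FastQC and the builds GRCm38 and mm10 are named in the submitters' processing notes. No source used here gives the aligner, the counting program or the strand setting. The deposited values are counts, whole-number reads per gene with no normalization. All 55536 identifiers matched GENCODE M21. The cortex table held 1 column that matched no sample, which was not used.

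Counts were tested per tissue with edgeR 4.0.16 (R 4.3.3; TMM, filterByExpr with a minimum count of 10 and a minimum total of 15, robust quasi-likelihood test, two-sided), all 4 genotypes in a single fit. Benjamini-Hochberg adjustment ran over every gene tested in a comparison, and an adjusted p under 0.05 was a call. CPM were computed from these counts with TMM library sizes. Likeness used Pearson r of log2(CPM + 0.5). Promoters were aligned with Biopython 1.88. The fits were tested on simulated data.

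The members and lists were chosen with earlier results of these data known. Genes were named by rule: the members, called Slc22 genes, up to 6 called genes per list by smallest p, the 3 genes most like each member (only the first for members outside chromosome 19) and Tmem106b and Tardbp. Alternatives were DESeq2 1.42.0, RLE size factors, no filter, only the compared genotypes, a replicate block and each library left out in turn. Leaving out the livers with high acute-phase transcripts and summing close gene pairs were chosen after seeing the data. The labels do not say whether libraries came from separate animals, so the spread that p-values are set against may be technical. Limits from 3 counts cover counting error only.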

Additional observations from a re-analysis of the deposited data

Results flagged for a closer look

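The effect of the TMEM106B-/- label on Slc22a27 in liver differed between the TDP-43 backgrounds, with an interaction of 2.88 ± 0.41 on the log2 scale. The TDP-43Q331K effect on Slc22a27 was 2.45 ± 0.29 on the TMEM106B-/- background, with all 4 libraries above the mean of their controls, and -0.43 ± 0.30 on the WT background, with all 4 below it, a contrast of directions that was not tested by itself. The interaction of Slc22a29 was 2.32 ± 0.43. These genes were chosen with liver values known, so the differences are descriptions.

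Single libraries stood apart from the rest of their genotype in 3 of 48 groups examined, where chance alone flags about 1 in 20. In liver, Slc22a18 was lowest in TMEM106B-/- replicate 4 at 71.3 CPM, a liver with high acute-phase transcripts, and Slc22a30 was lowest in TDP-43Q331K replicate 1 at 142.6 CPM. In cortex, Slc22a5 was highest in replicate 5 of the combined genotype at 14.2 CPM.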

How the results depend on the processing

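No called value of a member changed direction under the alternatives run. In liver of the combined genotype against WT the count of called members was 5, and 3 without the livers with high acute-phase transcripts, since Slc22a26 (1.69) and Slc22a30 (-0.52) were no longer called; the cause was not tested. Slc22a26 also lost its call without WT replicate 2 (2.53), and against TDP-43Q331K without replicate 3 (2.91) or 4 (2.96) of that genotype. In TMEM106B-/- livers against WT the count of 0 became 1 with DESeq2 and 1 without the livers with high acute-phase transcripts, and leaving out single libraries gave 0 to 2. For the interaction, leaving out single libraries gave 1 to 3 members in place of 2, and for the combined genotype 4 to 6 against WT in place of 5, 3 to 4 against TDP-43Q331K in place of 4 and 2 to 3 against TMEM106B-/- in place of 2. In TMEM106B-/- cortex against WT it gave 0 to 1. DESeq2 also called Slc22a28 in the combined genotype against TMEM106B-/- (-0.64), as did the fit without TMEM106B-/- replicate 2 (-0.82), which called its interaction too (-0.86). Same-numbered libraries mostly did not deviate together, with r over 0.1 in 5 of 24 pairs in liver (median -0.0493, against 0.0118 between other numbers). In cortex r was over 0.1 in 5 of 30 pairs (median -0.0157, against 0.0108). The highest r was 0.347 in liver and 0.21 in cortex. No pairing by number was seen, but this check cannot exclude it, since paired libraries need not deviate alike. With the replicate block the counts of called members were 5, 4, 2, 0, 0 and 2 in the 6 liver comparisons, as without it, and 0 in each cortex comparison. Over all genes the block called 980 in place of 1176 in liver of the combined genotype against WT, 13 in place of 44 in TDP-43Q331K against WT, and 120 in place of 298 in cortex of the combined genotype against TDP-43Q331K. Counts over all genes moved with the setting, in liver from 681 to 1851 (1176 in the fit reported) for the combined genotype against WT, 248 to 1317 (658) against TDP-43Q331K, 77 to 536 (173) against TMEM106B-/-, 55 to 620 (176) for TMEM106B-/- against WT, 7 to 401 (44) for TDP-43Q331K against WT and 51 to 600 (115) for the interaction. In cortex the first was 422 to 1610 (1038), the second 53 to 1103 (298) and TMEM106B-/- against WT 664 to 1479 (1097). Levels near 1 CPM, as for Slc22a26, Slc22a27 and Slc22a29 in WT liver, rest on 29 to 110 counts a library.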
